A study of Homo sapiens with 4 samples.

Results

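LNCaP-only regions near protein-coding gene ends are places in the genome where both ATAC-seq libraries of LNCaP cells held an accessibility summit and neither library of enzalutamide-resistant cells did. ATAC-seq maps open chromatin by inserting sequencing adapters into DNA that is free of nucleosomes. LNCaP is an androgen-responsive prostate cancer cell line, labelled WT here. The resistant cells, labelled LNCaP-resistance and treated with enzalutamide, an inhibitor of the androgen receptor, were raised by the study from LNCaP by adaptation to charcoal-stripped serum and stepwise increases of the drug, and the labels name neither the subline nor its dose. Each group had 2 libraries, and the labels, which tag the replicate number as the batch, do not state that these came from separate cultures.

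The regions were chosen by the presence and absence of summits in the 4 lists and by position. Windows reaching 250 bp to each side of every summit were merged where they overlapped, and a region was kept when its strongest summit lay within 1 kb of either end of a protein-coding gene of the RefSeq table for GRCh38.p14. This selected 1563 of 151102 regions. LNCaP-only regions made up 27.5% of all merged regions, a share that the selection itself fixes and that is given as a description. An exact permutation test of 2 libraries against 2 cannot give a two-sided p below 0.33, so no difference between the cells was tested. Intervals below are 95% Wilson intervals and cover counting error only. A summit present in fewer cells and a summit less open in every cell cannot be told apart in bulk libraries.

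The 5′ end of a gene holds its transcription start and promoter, and at active genes the promoter is kept free of nucleosomes across many cell types, above all where it is rich in CG dinucleotides. Promoters poor in CG more often belong to genes used in particular tissues, and their openness depends more on the transcription factors a cell makes. Open sites at 3′ ends or just inside a gene may be enhancers, internal promoters or shoulders of a neighbouring open site.

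The lists differed in length, with 117245 and 107344 summits in the LNCaP libraries against 70866 and 45618 in the resistant libraries, and they hold no read counts, so the depth is unknown. Of 10 prostate luminal genes, 8 had a summit within 1 kb of an end in all 4 libraries, KRT18 lacked one in resistant replicate 2, and KLK3 had none in any library. Of 3 endothelial genes none had a summit near an end, and of 4 fibroblast and 4 immune genes 3 each had none, while COL1A2 had one in every library and CD3E one in replicate 1 of both groups. Of 4 neuroendocrine genes, 3 had summits in all 4 libraries.

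For 155 of the regions the strongest summit fell inside a RefSeq promoter window, which runs from 250 bases before a transcript start to 50 bases after it. The sequences below are printed as examples of these promoters. Each is the reference sequence of GRCh38.p14 from RefSeq, written 5′ to 3′ on the strand of the gene as 300 bases, with every CG dinucleotide in capitals. The first 4 are those of RAB25 (chr1:156060910-156061209, plus strand), ARF3 (chr12:48957438-48957737, minus strand), MICAL1 (chr6:109465919-109466218, minus strand) and ZNF785 (chr16:30585648-30585947, minus strand), which ranked among the strongest regions at 5′ ends.
RAB25: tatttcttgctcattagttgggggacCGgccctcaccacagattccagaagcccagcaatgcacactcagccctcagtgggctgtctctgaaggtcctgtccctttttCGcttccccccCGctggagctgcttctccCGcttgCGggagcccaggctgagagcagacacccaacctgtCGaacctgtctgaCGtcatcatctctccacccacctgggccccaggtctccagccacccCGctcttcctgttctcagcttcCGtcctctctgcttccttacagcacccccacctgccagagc
ARF3: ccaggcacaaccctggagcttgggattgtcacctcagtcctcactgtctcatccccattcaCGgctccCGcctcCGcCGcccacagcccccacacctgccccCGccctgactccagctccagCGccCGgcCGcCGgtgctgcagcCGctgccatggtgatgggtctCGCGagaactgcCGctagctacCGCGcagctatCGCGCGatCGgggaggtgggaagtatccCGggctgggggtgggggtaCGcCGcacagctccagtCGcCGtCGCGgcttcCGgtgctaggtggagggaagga
MICAL1: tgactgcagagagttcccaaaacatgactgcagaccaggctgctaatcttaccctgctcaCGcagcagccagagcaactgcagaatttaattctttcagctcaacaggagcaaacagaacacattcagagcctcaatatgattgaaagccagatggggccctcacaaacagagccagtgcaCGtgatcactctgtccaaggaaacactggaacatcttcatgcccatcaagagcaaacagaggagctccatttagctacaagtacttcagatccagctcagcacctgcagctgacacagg
ZNF785: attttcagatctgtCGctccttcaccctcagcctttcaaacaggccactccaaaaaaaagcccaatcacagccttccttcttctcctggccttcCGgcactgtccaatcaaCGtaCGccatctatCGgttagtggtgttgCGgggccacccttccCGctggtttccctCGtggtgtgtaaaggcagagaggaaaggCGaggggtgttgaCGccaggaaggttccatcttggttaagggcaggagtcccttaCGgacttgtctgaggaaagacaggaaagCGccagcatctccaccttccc

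The next 2, DEFB132 (chr20:257474-257773, plus strand) and REP15 (chr12:27696197-27696496, plus strand), were strong regions with few CG dinucleotides. CYP4F11 (chr19:15934818-15935117, minus strand), GJB1 (chrX:71214989-71215288, plus strand) and NCAPD3 (chr11:134225412-134225711, minus strand) represent the cytochrome P450, epithelial junction and androgen receptor target lists described further on.
DEFB132: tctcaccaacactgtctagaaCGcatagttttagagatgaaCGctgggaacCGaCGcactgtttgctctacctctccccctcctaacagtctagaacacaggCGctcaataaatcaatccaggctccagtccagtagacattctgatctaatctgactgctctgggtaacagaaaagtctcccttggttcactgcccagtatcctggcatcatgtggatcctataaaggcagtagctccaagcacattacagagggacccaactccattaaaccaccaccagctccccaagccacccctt
REP15: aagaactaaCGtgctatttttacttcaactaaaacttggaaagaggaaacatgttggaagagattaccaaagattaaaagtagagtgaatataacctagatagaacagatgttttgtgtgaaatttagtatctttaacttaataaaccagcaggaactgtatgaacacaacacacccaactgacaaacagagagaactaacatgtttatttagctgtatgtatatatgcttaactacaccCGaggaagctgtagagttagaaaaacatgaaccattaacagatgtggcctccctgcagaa
CYP4F11: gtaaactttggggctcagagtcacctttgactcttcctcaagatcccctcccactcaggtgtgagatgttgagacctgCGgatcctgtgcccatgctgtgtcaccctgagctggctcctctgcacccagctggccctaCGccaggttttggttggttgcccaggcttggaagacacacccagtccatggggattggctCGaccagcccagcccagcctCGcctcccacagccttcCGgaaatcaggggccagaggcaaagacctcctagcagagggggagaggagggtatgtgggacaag
GJB1: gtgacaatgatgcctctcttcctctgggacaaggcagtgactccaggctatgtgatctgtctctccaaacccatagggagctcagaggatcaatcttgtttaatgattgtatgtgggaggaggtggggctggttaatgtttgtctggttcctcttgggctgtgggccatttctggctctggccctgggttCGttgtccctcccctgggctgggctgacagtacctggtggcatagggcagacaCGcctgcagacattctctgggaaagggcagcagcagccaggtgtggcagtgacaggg
NCAPD3: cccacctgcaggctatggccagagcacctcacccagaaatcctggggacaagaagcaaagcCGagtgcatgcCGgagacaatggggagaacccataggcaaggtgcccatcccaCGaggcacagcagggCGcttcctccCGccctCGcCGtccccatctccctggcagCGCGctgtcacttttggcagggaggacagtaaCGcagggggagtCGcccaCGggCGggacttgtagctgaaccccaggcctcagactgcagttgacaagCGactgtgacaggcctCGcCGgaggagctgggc

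The printed windows held 9 CG dinucleotides for RAB25, 27 for ARF3, 2 for MICAL1, 12 for ZNF785, 5 for DEFB132, 2 for REP15, 5 for CYP4F11, 2 for GJB1 and 16 for NCAPD3. The median of all 22199 coding promoter windows was 21, so that of the 9 printed promoters only ARF3 lay above it. This count describes the choice of sequences, since DEFB132 and REP15 were picked for few CG dinucleotides. Windows with a LNCaP-only summit that are not printed also lay above the median, among them HOXD1 with 36, ITGA8 with 27 and RPL10L with 25. The ARF3 summit lay 100 bases before the start, and summits of both resistant libraries lay near the same gene, 994 and 977 bp from the LNCaP summit. At the 8 other printed genes no resistant summit lay within 1 kb of either end. The summit lay 23 bases before the start of RAB25, 7 bases after that of MICAL1, 80 bases before that of ZNF785, 8 bases before that of REP15 and 31 bases before that of GJB1.

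Regions at gene ends were seldom LNCaP-only. Among the 18610 regions within 1 kb of a coding gene end, 8.40% (8.01 to 8.81) were LNCaP-only, against 30.2% (29.9 to 30.4) of the regions elsewhere. Read the other way, 3.76% of all LNCaP-only regions lay near a coding gene end, against 31.9% of the 31869 regions found in all 4 libraries (shared regions) and 16.6% of the 5800 regions found in both resistant libraries and neither LNCaP library (resistant-only regions). The count rested on the rule that every library must agree, since without LNCaP replicate 1 the regions numbered 2730, without LNCaP replicate 2 they numbered 2665, without resistant replicate 1 they numbered 2442 and without resistant replicate 2 they numbered 1803. With the replicate number as a block, 3026 regions were LNCaP-only within number 1 and 3948 within number 2.

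Because the LNCaP lists were longer, the comparison was repeated on the top 45618 summits by score in every library, a repeat whose breakdown by class was chosen after seeing the data. LNCaP-only regions near coding gene ends then numbered 541 and resistant-only regions 2407, where all summits gave 1563 and 962. The order of the 2 classes near gene ends therefore depended on how many summits each list contributed. Away from gene ends LNCaP-only regions remained more frequent than resistant-only regions with equal numbers of summits, at 20.3% and 14.5%. Only 448 (28.7%) of the original regions ranked within that number in both LNCaP libraries.

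The summits of the regions were of middle strength. Scores of separate lists are not on 1 scale, so each summit was given its percentile within its own library. The regions had a median percentile of 51.1 in LNCaP replicate 1 (lowest 0.0324, highest 99.4, quartiles 29.5 and 71.1) and of 47.8 in replicate 2 (lowest 0.800, highest 98.1, quartiles 27.7 and 67.3). LNCaP-only regions away from gene ends had nearly the same medians, 50.7 and 47.8, whereas shared regions near gene ends had medians of 85.5 and 84.1.

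At equal percentile in LNCaP, too, a region at a gene end less often lacked a summit in both resistant lists than a region elsewhere. The resistant lists were shorter, and this comparison was not repeated with equal numbers of summits. Of the regions near gene ends with a summit in both LNCaP libraries, 12.3% (11.7 to 12.9) were LNCaP-only, against 54.5% (54.2 to 54.9) elsewhere. Up to the 10th percentile the shares were 55.0% and 80.6%, and above the 90th percentile they were 2.04% and 23.1%. Where both LNCaP summits ranked in the top 10% of their lists, 61 of 3264 regions near gene ends (1.87%) were LNCaP-only, against 21.3% elsewhere.

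**Figure D1:**
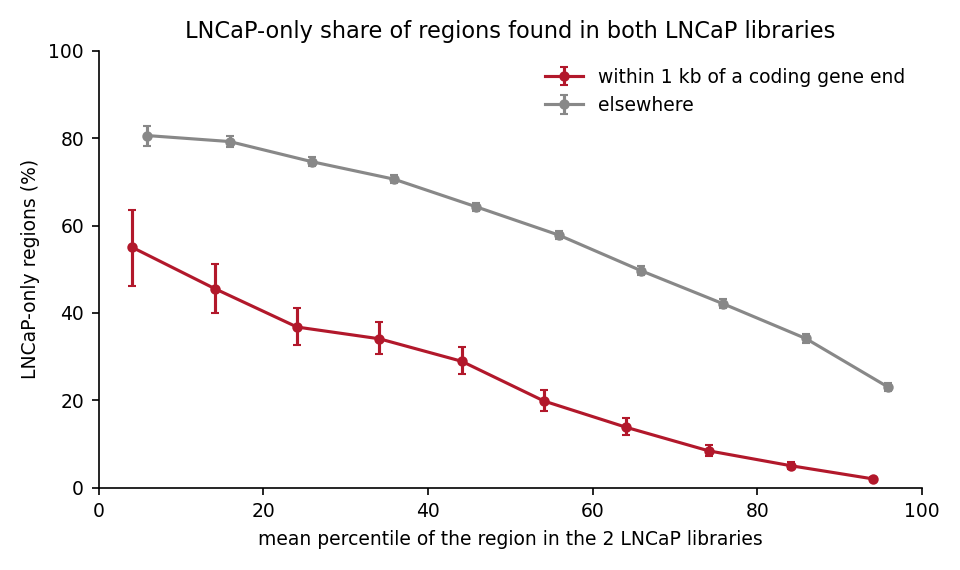
Share of regions with a summit in both LNCaP libraries that had no summit in either resistant library (vertical axis, %), by the mean percentile of the region in the LNCaP libraries (horizontal axis, bins of 10). Points are shares and bars 95% Wilson intervals. Regions within 1 kb of a coding gene end fall from 55.0% to 2.04% and lie below regions elsewhere, which fall from 80.6% to 23.1%, in every bin.

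**Figure D2:**
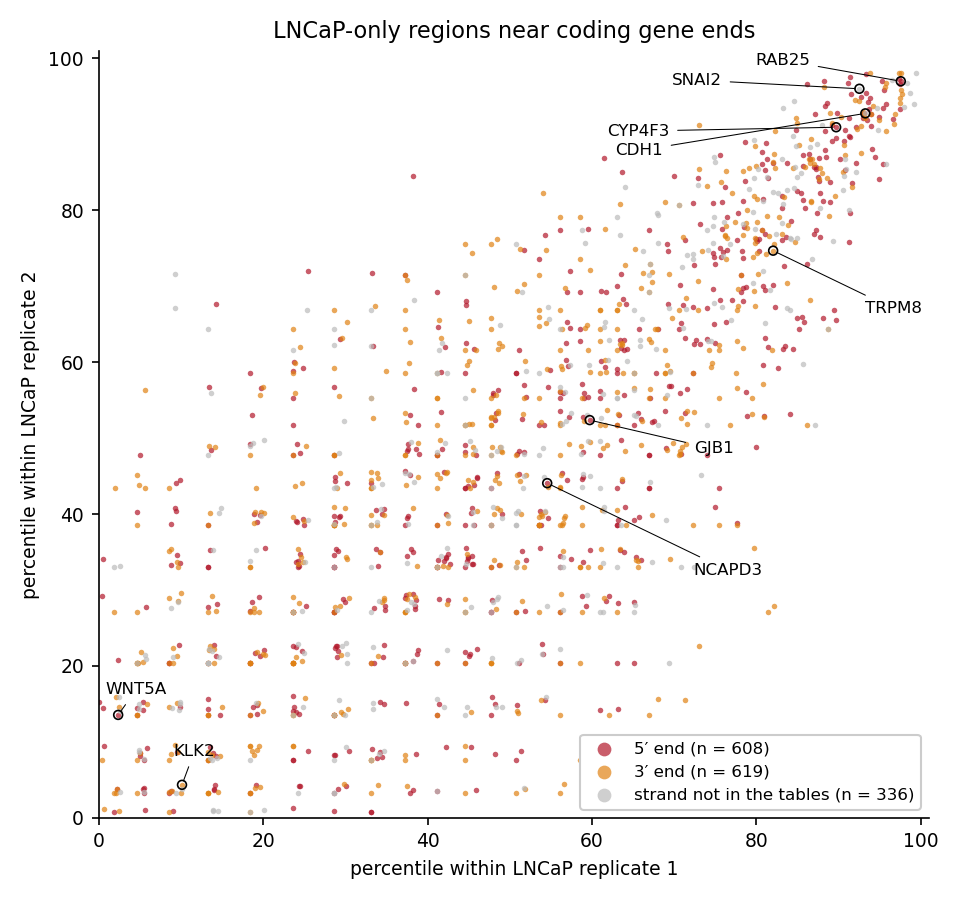
Percentile of each of the 1563 LNCaP-only regions near coding gene ends within LNCaP replicate 1 (horizontal axis) and replicate 2 (vertical axis), coloured by the nearest kind of gene end. Summits with tied scores form rows and columns, and the named regions run from WNT5A and KLK2 at the lower left to RAB25 at the upper right.

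At 5′ ends the highest region belonged to IKBKG, which encodes the regulatory subunit of the IκB kinase complex of NF-κB signalling, at percentiles of 97.3 in LNCaP replicate 1 and 97.3 in replicate 2. RAB25, a small GTPase of recycling vesicles in epithelial cells, followed with 97.6 and 97.0. Both genes lacked a resistant summit within 1 kb of either end, and the nearest ones lay 5963 and 6248 bp from the IKBKG summit and 5374 and 6410 bp from the RAB25 summit.

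CBX5, which encodes the heterochromatin protein HP1 alpha, reached 97.5 and 96.6, but resistant summits at the 90.3 and 95.4 percentiles lay 827 and 903 bp away at the same end. ARF3, a GTPase of the Golgi, reached 95.5 and 95.9, and its neighbouring resistant summits ranked at 91.8 and 85.0. The region shared by the ends of the zinc finger genes ZNF345 and ZNF790 reached 97.4 and 93.4, with resistant summits 510 and 532 bp away at the 94.2 and 97.0 percentiles. At these 3 ends the resistant libraries thus had strong summits outside the merged window.

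The other named 5′ regions had no resistant summit at the gene. KLRC4, a lectin-like receptor of natural killer cells, reached 95.3 and 97.1. C17orf99 reached 93.4 and 97.9. MICAL1, an oxidoreductase that takes actin filaments apart, reached 95.8 and 94.0. These were followed by ZNF785 (91.4 and 97.6) and GLYATL1, of a glycine acyltransferase family (95.3 and 93.5). The distance from these 5 summits to the nearest resistant summit ran from 2642 bp at C17orf99 to 20530 bp at GLYATL1.

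The tables used give no strand for BCAS1, RAC1, PLD6 and TRIM8, so the kind of end is not stated for them. RAC1, a small GTPase of the actin cytoskeleton, reached 98.7 and 95.5 at 100 bp outside an end, with the nearest resistant summits 10580 and 18488 bp away. BCAS1 reached 98.3 and 96.7, PLD6, a mitochondrial phospholipase, 96.5 and 97.2, and TRIM8, a ubiquitin ligase, 99.2 and 94.0. Of these 4 genes BCAS1 alone had no resistant summit at either end.

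At 3′ ends MAML1, a coactivator of Notch signalling, led with 97.6 and 98.1, followed by ADARB1, an RNA-editing adenosine deaminase, with 97.3 and 98.1. DOCK9, an exchange factor for CDC42, had 97.5 and 95.9, DCLRE1B, a nuclease of telomeres and DNA repair, 97.7 and 95.3, and CYB561D1 95.8 and 96.7. All 5 genes kept summits of both resistant libraries within 1 kb of their ends, none of them at the 3′ end with the LNCaP-only region.

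Among genes without any resistant summit near an end, OXR1, which protects against oxidative damage, had a region at 97.9 and 93.6. ACOT9, a mitochondrial acyl-CoA thioesterase, had 93.8 and 94.7 at 52 bp before its start, and the nearest resistant summits lay 39784 and 39773 bp away. ST6GALNAC1, a sialyltransferase that makes the sialyl-Tn antigen, had 94.7 and 93.5 at 15 bp outside an end. MYBPHL reached 96.6 and 92.0, and SPART, which encodes spartin, 96.7 and 91.4.

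With windows of 250 bp the regions lay as often at 3′ ends as at 5′ ends. The strand was known for 1227 of them, of which 608 were nearest to a 5′ end and 619 to a 3′ end. The 5′ share was 49.6% (46.8 to 52.3), against 94.2% (93.7 to 94.7) for shared and 86.1% (83.4 to 88.4) for resistant-only regions near gene ends. The 5′ share ranged from 54.8% to 59.9% with 1 library left out, from 32.6% with windows of 500 bp to 61.1% with windows of 100 bp. Comparing within replicate number 1 it was 60.0%, and within number 2 it was 64.0%. The selection shapes this share, because a resistant summit within about 500 bp would have removed a region. Both resistant libraries had summits within 1 kb of 64.0% of all 5′ ends with known strand, against 6.74% of such 3′ ends. Nothing is read from the contrast with the other classes.

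The regions also lay farther from the end. The median distance was 487 bp, against 92 bp for shared and 180.5 bp for resistant-only regions, and 30.7% of the regions lay within 250 bp of the end, against 71.4% and 54.8%. In the 100 bp before the 5′ end lay 12.7% of the regions nearest to a 5′ end, against 44.4% of the shared and 32.0% of the resistant-only ones. From 500 bp inside the gene onwards each 100-bp bin held between 6.25% and 8.22% of these regions. Around 3′ ends no bin stood out, with between 3.07% and 6.79% per bin. The selection shapes the profile at 5′ ends, because a resistant summit within about 500 bp would have merged with a region and removed it. Nothing is read from the larger distance, which is given for windows of 250 bp alone.

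**Figure D3:**
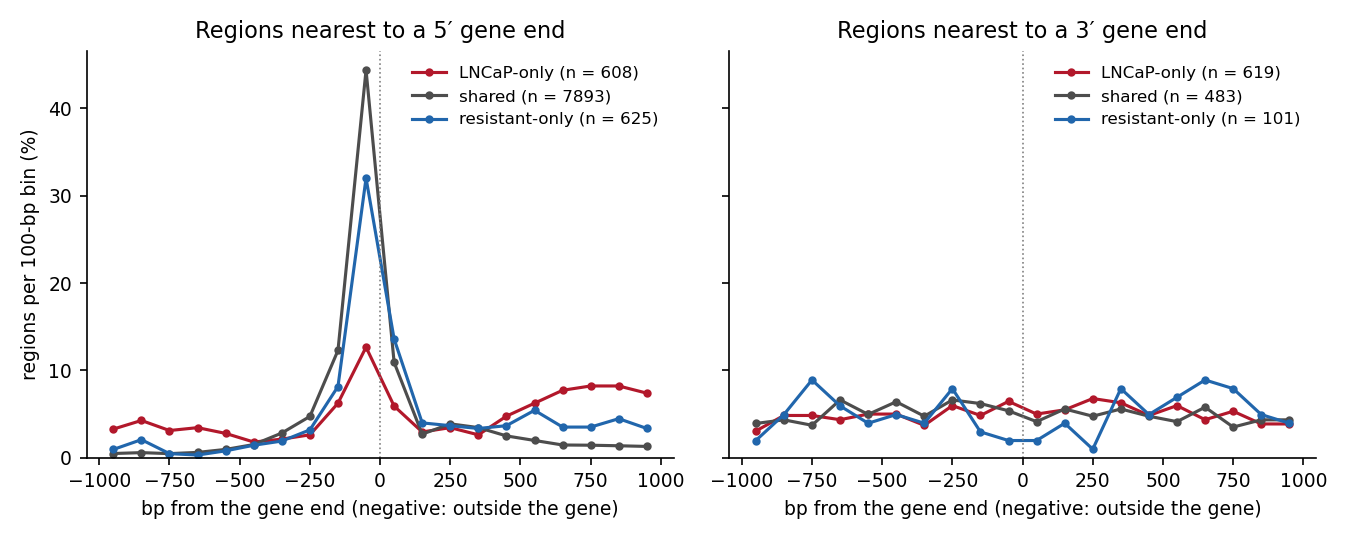
Position of the strongest summit relative to the nearest gene end (horizontal axis, bp, negative outside the gene) as the percentage of regions per 100-bp bin (vertical axis), for regions nearest to a 5′ end (left) and to a 3′ end (right). Each line is 1 class of region. Shared and resistant-only regions peak just before the 5′ end at 44.4% and 32.0%, LNCaP-only regions reach 12.7% there and rise again beyond 500 bp inside the gene, and the lines at 3′ ends have no common peak. The merging of windows shapes the LNCaP-only line, because a resistant summit within about 500 bp removes a region.

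What the resistant cells held at the same end is given as a description for regions at the start and regions inside the gene, a split of places chosen after the profile was seen. The selection largely fixes this contrast, because a resistant summit within about 500 bp would have merged with the region and removed it, which leaves little room for a resistant promoter summit beside a region at the start and more beside one farther inside. Of the 186 regions within 250 bp of a 5′ end, 144 (77.4%) had no resistant summit within 1 kb of that end and 31 (16.7%) had summits of both resistant libraries there. Of the 230 regions over 500 bp inside the gene, 40 (17.4%) had none and 179 (77.8%) had both. The median of the mean LNCaP percentile was 49.4 in the first set and 45.5 in the second. BNIP3, a mitochondrial protein induced by low oxygen, is an example of the second kind, with its summit 998 bp inside the gene at 33.5 and 27.6 and resistant summits 1093 and 1087 bp away.

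Over all 5′ regions 266 of 608 (43.8%) had no resistant summit at the end and 312 (51.3%) had both, against 30.8% and 64.0% of all 15842 5′ ends with known strand. At 3′ ends 582 of 619 (94.0%) had none, against 89.1% of all 3′ ends. These shares, too, are drawn from the presence and absence that chose the regions, and nothing is read from them. The nearest resistant summit lay at a median distance of 4178 bp in resistant replicate 1 and 6054 bp in replicate 2, within 1 kb for 26.0% and 24.4% of the regions and beyond 10 kb for 31.3% and 40.6%.

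The regions lay near 1671 of the 20037 coding genes, 8.34% of them. Of these genes 530 (31.7%) had no resistant summit within 1 kb of either end, 104 had summits of 1 resistant library and 1037 (62.1%) of both. Over all 12749 coding genes with summits of both LNCaP libraries near an end, 553 had no resistant summit near an end, and the selection favours such genes by its construction. Of the 1563 regions 1408 lay near 1 gene, 151 near 2 genes and 4 near 3 or more. No gene had more than 2 regions, and 57 genes had 2. The highest such genes were ADARB1, with a second region 957 bp before its start at 77.0 and 68.1, KDELR2, a receptor that returns proteins to the endoplasmic reticulum, with 85.4 and 84.9 at one end and 80.8 and 72.0 at the other, and CBX5, with a second region at its 3′ end at 63.0 and 64.3.

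The 1 kb limit cut through a continuous range of distances. Just inside it lay the regions of ZFHX3 at 1000 bp (54.5 and 74.7), ESRP2 at 999 bp (66.2 and 74.6) and BNIP3 at 998 bp. Just outside it lay LNCaP-only regions at OR8S1 and SRXN1, both at 1003 bp (33.2 and 38.5, and 30.1 and 49.5), and at SCD5 at 1004 bp (38.5 and 33.4).

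Of the 25 gene lists examined, 2354 genes were on any list and 175 of them (7.43%) had a LNCaP-only region near an end, beside 8.34% of all coding genes. Without LNCaP replicate 1 the number was 284, without LNCaP replicate 2 it was 287, without resistant replicate 1 it was 253, and without resistant replicate 2 it was 197. With equal numbers of summits it was 64. All coding genes with such a region numbered 2883, 2766, 2578 and 1926 in the same order of libraries left out, and 596 with equal numbers.

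Androgen receptor target genes had a region at 6 of 39 genes (15.4%, interval 7.25 to 29.7), beside 8.34% of all coding genes. At 1 of the 6 it lay at a 5′ end of known strand. CAMKK2, a calcium-dependent kinase kinase, had the strongest at 92.7 and 91.1, 24 bp beyond its 3′ end, with the nearest resistant summits 7226 and 10172 bp away. TRPM8, a cold-sensing cation channel, had 82.0 and 74.7 at 966 bp beyond its 3′ end, and no resistant summit lay near either end of the gene.

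NCAPD3, a condensin subunit, had 54.6 and 44.1 at 32 bp before its start with no resistant summit within 1 kb of either end, although strong ones lay 1405 and 1395 bp away. NDRG1 had 19.8 and 39.7 beside strong resistant summits at the same end. KLK2, a secreted protease of the prostate, had a weak region at its 3′ end at 10.1 and 4.35, while its summits near an end reached 87.3 and 87.3 in LNCaP and 83.2 and 75.3 in the resistant libraries.

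Luminal lineage genes had a region at 4 of 21 (19.0%, interval 7.67 to 40.0), beside 8.34% of all coding genes. At 1 of the 4 it lay at a 5′ end of known strand. CDH1, which encodes the adhesion protein E-cadherin, had 93.2 and 92.8 at 801 bp inside an end without resistant summits, the nearest lying 8805 and 8802 bp away, and kept resistant summits at its other end at the 85.4 and 85.4 percentiles. DPP4, a cell-surface peptidase, had 88.0 and 65.8 and kept resistant summits 619 and 562 bp away, and ESRP2, an epithelial splicing regulator, is given above.

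Epithelial junction genes had a region at 7 of 30 (23.3%, interval 11.8 to 40.9), beside 8.34% of all coding genes. At 1 of the 7 it lay at a 5′ end of known strand. With equal numbers of summits 2 of the 30 had a region, beside 596 of all 20037 coding genes. CDH1 led, followed by CTNND1, which encodes p120 catenin, at 86.8 and 73.6. GJB1, a gap junction protein, had 59.7 and 52.4 at 31 bp before its start, and was the only gene of the 7 with no resistant summit at either end. F11R, a junctional adhesion molecule, had 33.9 and 38.9, PPL, which encodes periplakin, 29.0 and 27.4, and TJP1 and CLDN4, of tight junctions, 34.0 and 4.32 and 13.5 and 22.0.

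The lists of other cell states, like those of androgen receptor target and luminal lineage genes, had intervals that included the background of 8.34%. Neuroendocrine genes had 2 of 31, POU3F2 and NKX2-1, both transcription factors, at 33.2 and 38.5 and at 28.7 and 39.8. Stem cell genes had 1 of 15, KLF4, and basal genes 1 of 13, KRT14. Mesenchymal genes had 2 of 20. These were the transcription factors SNAI2, at 92.5 and 96.0 with resistant summits 504 and 507 bp away at 82.0 and 73.4, and TWIST2, at 81.3 and 79.3.

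Cytochrome P450 genes had a region at 6 of 56 (10.7%, interval 5.00 to 21.5), beside 8.34% of all coding genes. Of the 6, 5 belonged to the CYP4 family of fatty acid hydroxylases. These were CYP4F3 (89.7 and 90.9), CYP4B1 (81.2 and 88.8), CYP4F11 (78.5 and 89.0), CYP4F12 (79.5 and 70.5) and CYP4F8 (24.2 and 33.1), and the other was CYP2W1 (48.2 and 52.3). The CYP4F genes are neighbours on chromosome 19. Except for CYP4F12, with a summit of 1 resistant library at the gene, none had a resistant summit near an end, and at CYP4F11 the nearest lay 90872 and 90914 bp away. Over all genes with a LNCaP-only region 31.7% had none, and the selection favours such genes. Steroid and lipid synthesis genes had 3 of 34, among them CYB5A (90.1 and 86.8) and UGT2B15 (37.4 and 29.3), both with resistant summits at the same end.

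Signalling lists also had intervals that included the background. WNT pathway genes had 6 of 46, led by the receptor FZD9 (83.9 and 78.0) and the ligand WNT2B (56.7 and 69.7, with a second region at 69.9 and 49.3). WNT11 and WNT5A, ligands of the branch that acts without beta-catenin, had weaker regions with no resistant summit at the gene, at 48.3 and 14.5 and at 2.37 and 13.6. MAPK and receptor tyrosine kinase genes had 4 of 37, namely MAPK3 (63.4 and 76.7), FGFR3 (67.3 and 71.8), FGFR1 and INSR. Genes with symbols of IL followed, with or without further letters, by a number had 10 of 89, IL19 (93.0 and 93.0) and IL4R (85.5 and 65.9) being the highest, and those of RAB formed in the same way had 10 of 84, led by RAB25.

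At the few genes of basic cell functions with a region, resistant summits were mostly present at the same gene. Over all genes with a LNCaP-only region, 62.1% had summits of both resistant libraries, and nothing is read from the contrast. Cell cycle genes had 1 of 36, MAD2L1, a protein of the spindle checkpoint, at 60.9 and 33.1, and kept summits of both resistant libraries near its ends. SWI/SNF genes had 2 of 27, BCL7B (93.9 and 92.7) and SMARCB1 (67.3 and 52.1), each with resistant summits at the same end. Cytosolic ribosomal protein genes had 8 of 91, of which RPL10L, a retrotransposed copy expressed mainly in testis, was the strongest at 93.4 and 91.9 and the only one with no resistant summit at the gene.

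Among gene families, genes with ZNF symbols had 28 of 518 (5.41%, interval 3.77 to 7.70), olfactory receptor genes 12 of 392 (3.06%, interval 1.76 to 5.27) and potassium channel genes 3 of 95. Keratin and keratin-associated protein genes had 17 of 151 (11.3%, interval 7.15 to 17.3). At none of the 17 did a resistant summit lie near an end, beside 31.7% of all genes with a LNCaP-only region that had none. The selection favours such genes, and nothing is read from this count. Most olfactory receptor and keratin genes had no summit of any library near an end, with 44 of 392 and 42 of 151 that did, so that of those detected 27.3% and 40.5% had a LNCaP-only region. Over all coding genes with a summit of any library near an end the share was 11.1%. A gene can be detected through the longer LNCaP lists alone, so nothing is read from these shares. With equal numbers of summits 3 olfactory receptor and 5 keratin genes had a LNCaP-only region, beside 596 of all 20037 coding genes. Solute carrier genes had 35 of 398, HOX genes 4 of 40, cadherin genes 2 of 28, integrin genes 2 of 24, and genes with ARHGEF or ARHGAP symbols 3 of 62.

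**Figure D4:**
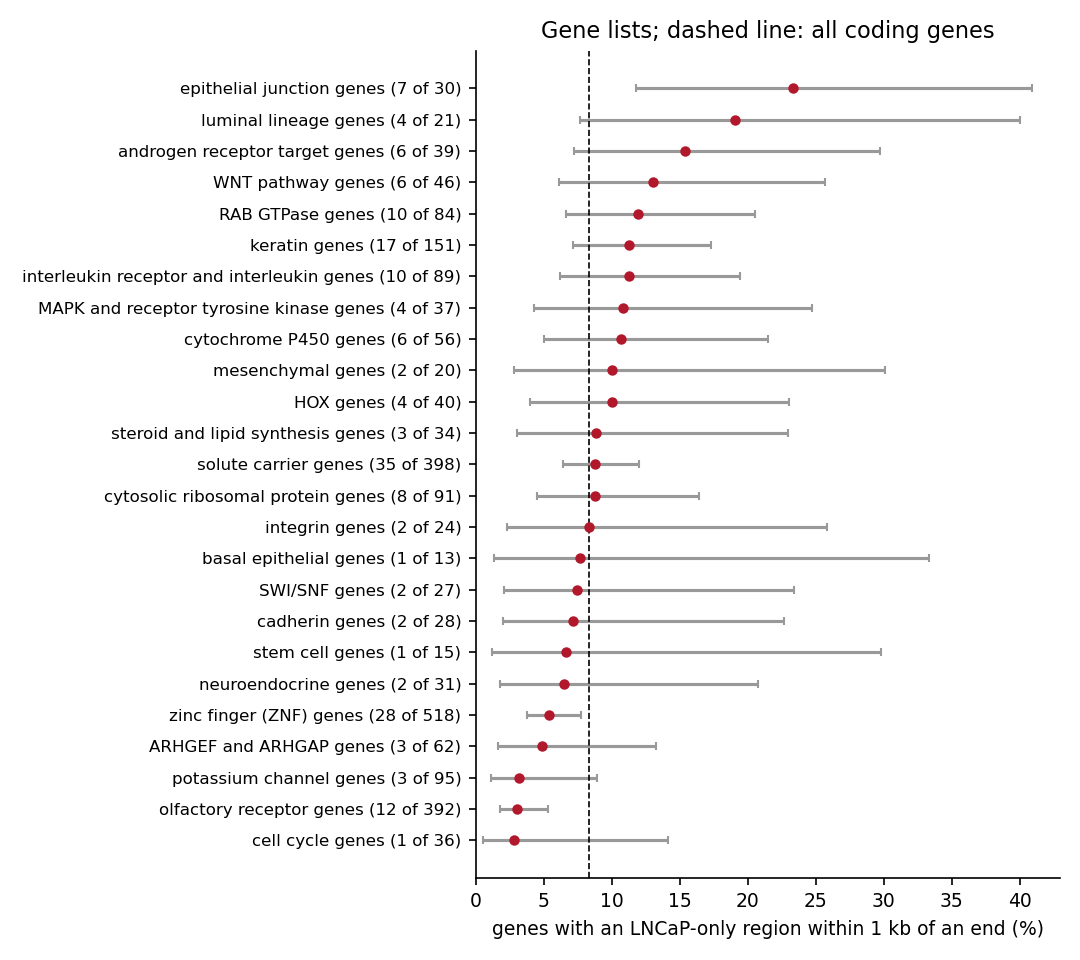
Percentage of the genes of each of the 25 lists with a LNCaP-only region within 1 kb of an end (horizontal axis), with 95% Wilson intervals and the counts in the labels; family lists hold the genes whose symbols are the family's letters followed, with or without further letters, by a number, which takes in keratin-associated and RAB-interacting proteins. The dashed line marks 8.34%, the share of all coding genes, and lies outside the interval of the epithelial junction, ZNF and olfactory receptor lists. This is a description and not a test, as the lists were chosen with earlier results of these data known.

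At genes with a LNCaP-only region the shared regions did not rank lower in the resistant cells by the median difference, though the resistant libraries differed. Of the 1671 genes, 821 also had a region near an end in all 4 libraries, which the selection did not use. Its median percentiles were 85.2 and 84.5 for LNCaP, 88.0 and 83.2 for the resistant libraries, and the median difference, resistant minus LNCaP, was 1.01 percentile points, beside 0.243 over all 11175 coding genes with such a region. Both resistant libraries ranked below both LNCaP libraries at 18.5% of the 821 genes, beside 22.5% of all, and above both at 33.0%, beside 26.6% of all. The median of resistant replicate 2 lay below both LNCaP medians and that of resistant replicate 1 above both. The difference was 2.51 points without resistant replicate 2 and 0.101 without resistant replicate 1. With equal numbers of summits it was 12.8, beside 10.4 over all coding genes, so its size depended on how many summits each list contributed.

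Away from their ends the same genes were close to other genes as well. Of the 6757 regions inside them and over 1 kb from an end, 32.7% (31.6 to 33.8) were LNCaP-only, beside 31.6% (31.3 to 32.0) of the 70000 such regions of all coding genes.

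Promoters with a LNCaP-only summit inside them were poor in CG. The 160 windows that held such a summit had a median of 8 CG dinucleotides and a GC content of 56.0%, against 28 and 66.0% for the 6696 windows with a shared summit and 26 and 68.0% for the 362 with a resistant-only summit. At most 5 CG dinucleotides were present in 40.6% (33.3 to 48.4) of these windows, against 1.46% (1.20 to 1.78) and 5.80% (3.83 to 8.71), and 21.4% of all coding promoter windows. With equal numbers of summits the shares were 35.6%, 1.17% and 3.53%. REP15, MICAL1 and GJB1, with 2 each, and DEFB132 and CYP4F11, with 5 each, are of this kind among the sequences above.

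Among promoters open in both LNCaP libraries, the fewer CG dinucleotides a window held, the more often its region was LNCaP-only. Such a region can have a resistant summit nearby, and 119 of the 155 had none at a nearest gene end. The resistant lists were shorter, and this comparison was not repeated with equal numbers of summits. With at most 5, 65 of 187 (34.8%) were LNCaP-only, with 6 to 15, 40 of 560 (7.14%), with 16 to 25, 27 of 1873 (1.44%), and with 26 or more, 23 of 3518 (0.654%). The order was the same at matched strength, in classes added after seeing the data. Below the 50th percentile the share fell from 59.6% (46.1 to 71.8) with at most 5 to 3.25% (1.83 to 5.73) with 26 or more, and above the 75th percentile from 15.0% (8.79 to 24.4) to 0.370% (0.195 to 0.701).

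**Figure D5:**
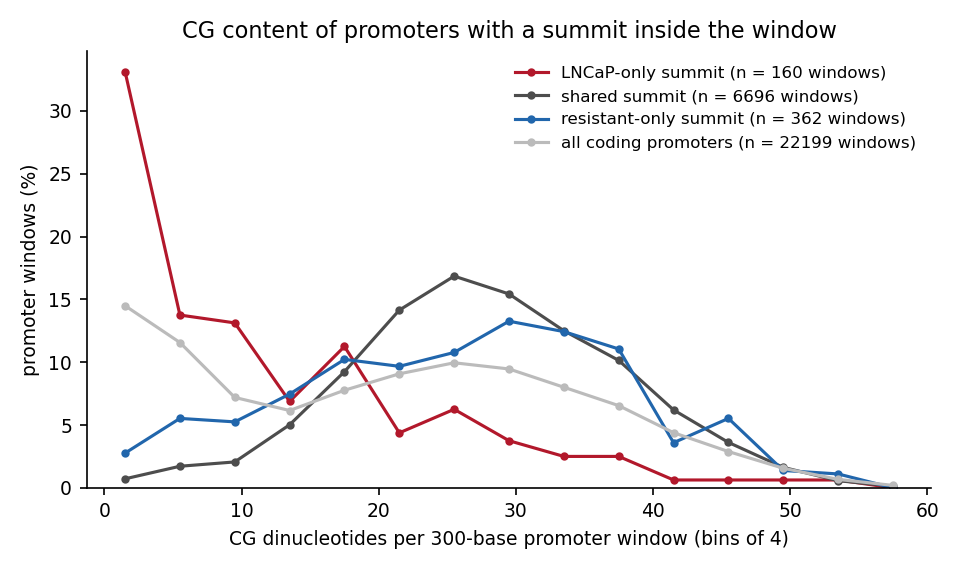
CG dinucleotides per 300-base promoter window (horizontal axis, bins of 4) as the percentage of windows (vertical axis), for windows holding the strongest summit of a LNCaP-only, shared or resistant-only region and for all coding promoter windows. LNCaP-only windows are most frequent in the lowest bin, while shared and resistant-only windows centre near their medians of 28 and 26.

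When every window with a transcript start within 1 kb of a summit was taken, 728 windows, the median was 22 CG dinucleotides, and 21.4% (18.6 to 24.6) held at most 5. This equalled the 21.4% of all coding promoter windows, but stayed above the 2.30% (2.03 to 2.61) of windows taken in the same way around shared summits and the 6.16% (4.65 to 8.12) around resistant-only summits, whose medians were 27 and 25.

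Short sequence motifs were searched on both strands of the 300-base windows, and a match is a description, not a bound site. GGGCGG, the box of SP factors, was present in 34.4% (27.5 to 42.0) of the 160 windows with a LNCaP-only summit, against 76.3% of windows with a shared summit and 56.3% of all. CCGGAA, the ETS core, was present in 13.8%, against 37.0% and 21.2%, and the NRF1 motif in 1.88%, against 12.7% and 7.39%. These 3 contain CG and are rarer in windows poor in it. In the sequences above, GGGCGG was found in ARF3 and NCAPD3 and not in the other 7.

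TATAAA, the TATA box, was present in 16.3% (11.3 to 22.7) of these windows, against 4.05% of windows with a shared summit and 9.47% of all, and DEFB132 above holds it. AGAACA, which forms part of the androgen response element, was present in 14.4% (9.77 to 20.6), against 7.57% and 11.7%, and RAB25, MICAL1, DEFB132 and REP15 hold it. TGTTTAC, the forkhead core, was present in 5.63% (2.99 to 10.3), against 2.36% and 2.85%. The full androgen response element was found in 0 of the 160 windows and in 0 of all 22199. The motif AGATAA was present in 9.38% (5.76 to 14.9), against 3.61% and 7.91%, and the AP-1 site TGANTCA in 6.88% (3.88 to 11.9), against 3.54% and 6.15%. For the NFY box CCAAT the shares were 33.8%, 42.3% and 34.7% in the same order, for the E-box CACGTG 8.75%, 10.8% and 8.34%, and for the TEAD site GGAATG 10.6%, 9.44% and 12.2%. The cAMP response element TGACGTCA had 1.88%, 3.78% and 2.26%, and the full NFI motif was found in none of the 160. In the 728 windows with a transcript start within 1 kb of a summit, TATAAA was present in 9.48%, AGAACA in 9.89% and AGATAA in 5.22%. All windows had 9.47%, 11.7% and 7.91%, and windows taken in the same way around shared summits 4.59%, 7.93% and 4.06%. TGTTTAC had 4.67% in the 728 windows, against 2.85% of all. No share was adjusted for GC content, whose median was 56.0% in the 160 windows and 66.0% with a shared summit.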

How the data were processed

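ATAC-seq summit lists of 2 LNCaP and 2 resistant libraries were used. The authors called peaks on each library separately and deposited 1 list per library. Scores in the deposited lists look like −log10 values of p or q, the lowest lying just above that of 0.05, and the sources used here do not say whether p or q was taken. The submitters' processing notes name Bowtie2 2.2.5, SAMtools 1.6, MACS2 2.2.6, deepTools 3.5.2, HOMER 4.11 and edgeR 3.22.5, with the build hg38. The sources used here give no filter or threshold for the lists, and the depth is unknown.

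From the lists, summits were widened by 250 bp, merged over all 4 libraries and classed by presence. Percentiles were computed within each library. Ends of 20037 coding genes were taken from RefSeq (GRCh38.p14). Strand was read from the RefSeq promoter table, which covered 15842 of them, and for the other 4195 the kind of end is not given. No genome sequence was used, so summits outside promoter windows have no sequence here. Region merging and classification were tested on simulated data. Tables were handled with pandas 2.3.3 and numpy 2.4.6 under Python 3.11.15, intervals used scipy 1.17.1, and figures were drawn in matplotlib 3.10.9.

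The regions, the 25 gene lists and the 14 motifs were chosen with earlier results of these data known. Regions were ranked by mean LNCaP percentile, and the names given are the 10 highest at 5′ ends, the 10 highest others, the 5 highest at genes without resistant summits, the 3 genes with most regions, up to 6 genes per list, and the 3 nearest to either side of the 1 kb limit. Some genes that this rule names are not reported here. Alternatives were other windows, distances and score minimums, equal numbers of summits, each library left out, and each replicate number alone.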

Additional observations from a re-analysis of the deposited data

How the results depend on the processing

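The number of LNCaP-only regions near coding gene ends, 1563, was 800 within 500 bp and 3784 within 3 kb of an end, 541 with equal numbers of summits, 865 with a score of at least 10 and 3675 when 1 LNCaP library sufficed, and ran from 1803 to 2730 with 1 library left out. The number of genes, 1671, was 838, 3957, 596 and 933 under the first 4 of these settings and ran from 1926 to 2883 with 1 library left out. The share of regions near gene ends that were LNCaP-only, 8.40%, was 6.01%, 13.3%, 3.66% and 5.88% under these settings, 8.94% and 7.15% with windows of 100 and 500 bp, and 9.68% to 15.4% with 1 library left out. The 5′ share, 49.6%, was 44.9% within 500 bp, 55.5% with equal numbers, 52.8% with a score of at least 10, 61.1% and 32.6% with the 2 other windows, and 54.8% to 59.9% with 1 library left out.

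The median percentile, 47.7, was 51.4 with windows of 100 bp and 37.5 to 49.7 with 1 library left out. The number of list genes, 175, was 413 within 3 kb, 64 with equal numbers, 77 at 5′ ends alone and 197 to 287 with 1 library left out. The median difference of shared regions, 1.01 points, was 12.8 with equal numbers, where all coding genes had 10.4, and 0.101 to 2.51 with 1 library left out. The share of promoter windows with GGGCGG was 1.96 percentage points above that of all windows for starts within 1 kb of a summit, and reversed to -21.9 for summits inside the window and to -15.5 against windows of shared regions.

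With the replicate number as a block, which the labels tag as the batch, the within-number values for numbers 1 and 2 were 3026 and 3948 regions, 3122 and 4091 genes, 17.2% and 24.0% LNCaP-only near gene ends, 60.0% and 64.0% at 5′ ends, median percentiles of 38.8 and 40.5, and differences of shared regions of 1.92 and 0.296 points. A setting with fewer libraries asks for agreement of fewer lists and so admits more regions. The cause of the other changes was not tested. Of the 78 settings tried over these results 22 stayed within the spread set for them, and of 175 settings over single gene lists 78 did. The classes by CG content and strength and the equal-number breakdown were added after seeing the data. No read depth was available.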

Other observations

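A LNCaP-only region lay within 1 kb of 12 microRNA genes as well as of a coding gene end, a list compiled after the values were seen. The strongest were at MIR5193 beside UBA7, at percentiles of 87.7 and 80.2 in LNCaP replicates 1 and 2, and at MIR564 beside TMEM42, at 75.8 and 77.5, where the summit lay 14 bp from the microRNA gene. MIR203A and MIR203B, which form an overlapping pair beside ASPG, had the same region at 13.8 and 7.63, and MIR7704 shared the HOXD1 region at 23.7 and 58.8. The share over all microRNA genes is not given here, so nothing is read from the count of 12.

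The region near the most genes lay at chr2:233772528-233773030, at the common end of UGT1A1, UGT1A3, UGT1A4, UGT1A5, UGT1A6, UGT1A7, UGT1A8, UGT1A9 and UGT1A10, which encode glucuronidating enzymes that share their last exons. It was weak, at 23.6 and 13.6, and adds 9 genes to the count of genes from a single region.

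Of the autosomes, 20 and 11 had the highest shares of LNCaP-only regions among regions near coding gene ends, 11.7% (63 of 537) and 11.6% (126 of 1082), and 19 the lowest, 5.61% (73 of 1301), beside 8.40% over the genome. These shares were not tested, and copy number was not analysed here.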
